A study of Homo sapiens with 6 samples.

Results

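The core and linker histone cluster genes are the genes of the HIST1 to HIST4 clusters, which encode the core histones H2A, H2B, H3 and H4 and the linker histone H1. They were taken as every row whose symbol began with HIST1H, HIST2H, HIST3H or HIST4H, leaving out symbols that contain PS. This gave 76 of the 57232 genes in the table, with 55 in the HIST1 cluster on chromosome 6, 16 in HIST2, 4 in HIST3 and 1 in HIST4. By family the rows were 6 H1, 17 H2A, 23 H2B, 15 H3 and 15 H4 genes. Of the 76, 6 are annotated as pseudogenes in GENCODE v29 although their symbols do not say so.

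RNA was sequenced from IMR90 cells, a line of human fetal lung fibroblasts. The cells were infected either with ARID1B cDNA (3 libraries) or with an empty vector (3 libraries). ARID1B is a DNA-binding subunit of the SWI/SNF chromatin remodelling complex, and the study asked what its ectopic expression does to gene expression in the course of senescence. Both groups were at passage 13, were selected in puromycin until day 4 and were collected 6 days after infection, with sequencing libraries from a stranded kit for mRNA. The promoter that drives the cDNA is not given in the sources used here, and only 1 cell line was used.

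Most core histone genes are transcribed when DNA is replicated, and their messages are the only animal mRNAs that end in a conserved stem-loop in place of a poly(A) tail. The stem-loop is bound by SLBP, and the message is cut a short distance behind it. Some histone cluster genes can also end at a polyadenylation signal further downstream, which gives a polyadenylated message in cells that do not replicate their DNA. The labels name a kit for mRNA. Such kits usually select by the tail, which takes up the polyadenylated form and largely leaves the stem-loop form behind, and the values below may therefore not be the whole histone message of the cell. Of the 76 genes, 12 known to have a polyadenylated form were listed (HIST1H1C, HIST1H2AC, HIST1H2BC, HIST1H2BD, HIST1H2BG, HIST1H2BJ, HIST1H2BK, HIST1H4H, HIST2H2BE, HIST2H2BF, HIST3H2A and HIST4H4), and the other 64 were taken as the replication-dependent bulk. These 64 include the 6 annotated pseudogenes, so not all of them are replication-dependent genes. The list was made from general knowledge with earlier results of these data known, so comparisons between the classes are descriptions only. Histone genes are near-identical in their coding parts, so reads could be split between copies or lost from them by the authors' counting. HIST2H3A and HIST2H3C, which are identical copies, were at 0 in every library.

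The stem-loops are shown because both classes of gene carry one. A search of the GENCODE v29 transcripts found the stem-loop in 35 of the 76 genes, 9 on the polyadenylated list and 26 of the others. No match says only that the transcript model does not hold the letters searched, since several models (HIST1H2BK and HIST1H1C among them) end with the coding sequence. The 3 forms found most often are given here, with the 6 bases of each arm in capitals and the loop in lower case.
form of HIST2H2BE, HIST1H2AC and HIST3H2A, found in 18 genes: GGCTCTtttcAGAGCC
form of HIST1H2BC and HIST1H2BD, found in 5 genes: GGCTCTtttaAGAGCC
form of HIST1H4H, HIST1H4J and HIST4H4, found in 5 genes: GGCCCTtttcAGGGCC
The HIST2H2BE transcript went on for 1729 bases behind this stem-loop and held the polyadenylation signal AATAAA there. The HIST1H2AC transcript went on for 1128 bases and HIST1H4H for 1655 bases, both with AATAAA, whereas the HIST1H4J transcript ended 6 bases behind its stem-loop. Among the genes with a stem-loop, 7 of the 9 on the list and 16 of the 26 others went on for more than 300 bases. AATAAA lay behind the stem-loop in 5 of the 9 and in 16 of the 26. The listed genes without it there were HIST1H2BC, HIST1H2BG, HIST3H2A and HIST4H4. The transcript models alone therefore did not separate the classes.

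Promoters are shown for the genes whose values are described first. Histone H2A and H2B genes often lie head to head and share the stretch between their starts, and the H2B promoter is known for the octamer ATTTGCAT, which POU2F1 (OCT1) binds in S phase. The sequences are the bases before the transcription start in RefSeq (GRCh38.p14), 5′ to 3′ on the strand of the gene, and the capitals mark matches on either strand to the octamer, the CCAAT box (CCAAT) and the TATA box (TATAAA). The first pair are 250 bases long. They span the whole distance to a divergent partner and run past its start (236 bases from HIST2H2BE to HIST2H2AC and 246 bases from HIST1H2BC to HIST1H2AC).
HIST2H2BE, chr1:149886683-149886932, minus strand: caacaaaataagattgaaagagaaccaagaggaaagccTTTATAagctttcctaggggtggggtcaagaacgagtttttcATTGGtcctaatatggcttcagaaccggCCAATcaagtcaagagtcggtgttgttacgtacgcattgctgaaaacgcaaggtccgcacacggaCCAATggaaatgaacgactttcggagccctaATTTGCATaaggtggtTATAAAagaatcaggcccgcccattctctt
HIST1H2BC, chr6:26123927-26124176, minus strand: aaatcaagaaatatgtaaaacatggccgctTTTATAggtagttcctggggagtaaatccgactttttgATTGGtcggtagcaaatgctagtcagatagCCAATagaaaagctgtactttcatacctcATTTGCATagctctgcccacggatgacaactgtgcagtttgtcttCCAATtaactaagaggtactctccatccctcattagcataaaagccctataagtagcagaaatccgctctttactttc
The next 4 are the last 120 bases before the start, for the H2B and H1 genes with the highest levels, for an H4 gene with no match and for the HIST3 gene whose values ran the other way.
HIST1H2BK, chr6:27146859-27146978, minus strand: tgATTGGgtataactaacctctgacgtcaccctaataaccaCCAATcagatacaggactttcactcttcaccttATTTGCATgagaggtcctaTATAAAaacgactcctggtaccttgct
HIST1H1C, chr6:26056471-26056590, minus strand: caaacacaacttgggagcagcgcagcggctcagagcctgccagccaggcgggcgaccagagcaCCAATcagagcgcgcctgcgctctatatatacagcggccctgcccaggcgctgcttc
HIST1H4H, chr6:26285535-26285654, minus strand: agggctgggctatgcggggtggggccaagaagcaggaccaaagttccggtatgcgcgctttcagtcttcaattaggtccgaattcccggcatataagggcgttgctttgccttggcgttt
HIST3H2A, chr1:228457874-228457993, minus strand: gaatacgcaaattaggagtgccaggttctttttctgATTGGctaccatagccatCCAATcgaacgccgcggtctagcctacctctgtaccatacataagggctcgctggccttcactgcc
Of the 76 genes, 61 had a RefSeq promoter. The octamer was found within 250 bases before the start of 26 of the 61, or 42.6%, against 2.03% of 27305 genes with a promoter. By family it was in 14 of 18 H2B, 11 of 14 H2A, 1 of 10 H3, 0 of 13 H4 and 0 of 6 H1 promoters. Head-to-head partners hold the same bases between their starts, so 1 octamer can count for both genes, as for HIST2H2BE and HIST2H2AC. The H3 match, in HIST1H3D, has the same position as that in HIST1H2AD. The counts are therefore not all of separate octamers. The CCAAT box was found in 51 of the 61 and in 32.0% of all promoters, and the TATA box in 41 of the 61 and in 10.7% of all promoters.

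**Figure D1:**
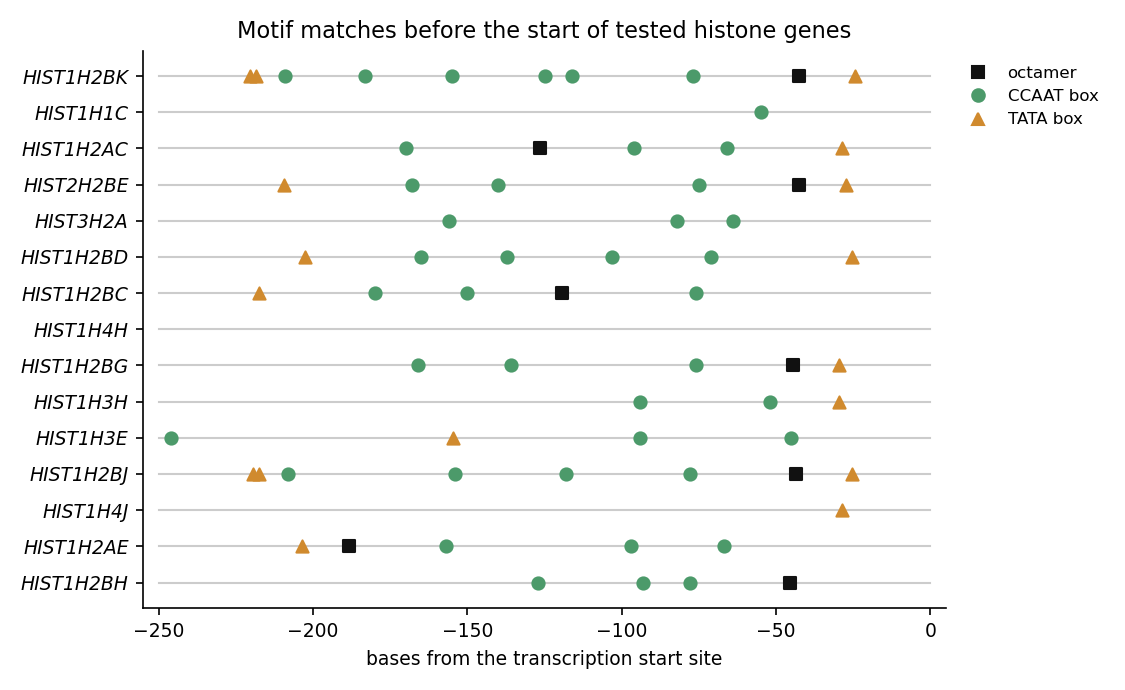
Matches to the octamer (squares), the CCAAT box (circles) and the TATA box (triangles) along the 250 bases before the transcription start (x axis, bases) of the 15 tested histone genes with a RefSeq promoter, ordered from the highest mean FPKM at the top. The octamer is present in 8 of the 15 and lies within 50 bases of the start in HIST1H2BK, HIST2H2BE, HIST1H2BG, HIST1H2BJ and HIST1H2BH.

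The library totals recovered from the table ran from 70022493 to 91924514 reads in the ARID1B libraries and from 63386813 to 90548577 reads in the vector libraries. ARID1B itself, the check of the labels, was at 32.5, 21.0 and 28.3 FPKM in the ARID1B libraries and at 2.29, 1.31 and 2.05 FPKM in the vector libraries. All 10 lung fibroblast markers passed the filter, and the 6 blood markers summed to at most 0.0752 FPKM in any library. Of the epithelial markers 3 of 7 passed it and SFTPC was at 0, and of the endothelial markers 1 of 5 passed and CDH5 was at 0. The 5 smooth muscle markers summed to 122 to 129 FPKM in the ARID1B libraries and 74.4 to 129 FPKM in the vector libraries, and 3 of them passed the filter. Their part in the results below was not tested. The second vector library stood apart: its score on the first principal component, which held 63.8% of the variance, was 48.5, against −20.0 to 3.63 for the other 5 libraries. In both groups replicate 3 lay near a mixture of the other 2 libraries, at 70.4% of replicate 1 in ARID1B and 81.1% in vector, so that SD and p-values may rest on fewer than 3 independent samples. Results are therefore also given without the second vector library and without both libraries numbered 3.

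Histone cluster messages were low in these libraries, and a few genes held most of what was measured. The unit is FPKM (fragments scaled to gene length and to the depth of the library). It compares levels of different genes only as far as the lengths used fit the messages. Of the 76 genes, 16 averaged 1 FPKM or more across the 6 libraries and were tested, 52 were above 0 but below that mean, and 8 were at 0 in all libraries (HIST1H2AA, HIST1H2AD, HIST1H2BA, HIST1H4G, HIST2H3A, HIST2H3C, HIST3H2BA and HIST3H3). Only 6 had a mean of at least 5 FPKM, and all 6 are on the polyadenylated list. HIST1H2BK led with a mean of 51.7 FPKM, before HIST1H1C at 27.4, HIST1H2AC at 13.1 and HIST2H2BE at 12.1 FPKM. These 4 held 72.0% of the FPKM summed over all 76 genes, the 12 listed genes 88.3% and the 64 others 11.7%. The filter was met by 10 of the 12 listed genes and by 6 of the 64 others. HIST1H2BH was just above it at 1.03 FPKM, and HIST1H2AI was just below it at 0.921 FPKM. By family, H2B genes held 56.8% of the summed FPKM, H1 genes 19.1%, H2A genes 16.6%, H4 genes 4.29% and H3 genes 3.18%.

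**Figure D2:**
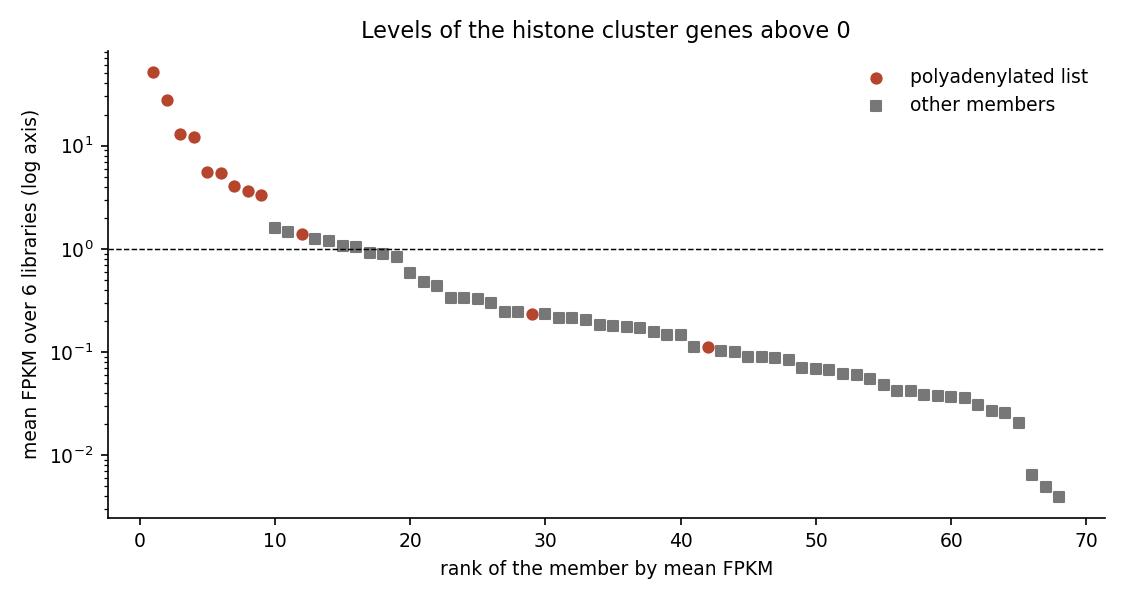
Mean FPKM over the 6 libraries (y axis, log scale) of the histone cluster genes above 0, by rank (x axis), with genes on the polyadenylated list as circles and the others as squares. The dashed line is the filter of 1 FPKM, above which 10 listed and 6 other genes lie.

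The gene lengths by which the table's values were divided also differed between the classes. The length implied by the steps of the values had a median of 1271 bases for the 12 listed genes and of 475 bases for the 56 others with reads. It was 2223 bases for HIST2H2BE, 3676 for HIST1H2AC and 1201 for HIST1H2BK, but only 445 for HIST1H2BG and 496 for HIST3H2A. The ranks and shares in FPKM depend on these lengths. In the first ARID1B library HIST1H2AC had 4086 reads and HIST1H1C 2090. The listed genes held 16342 of the 17218 reads of the 76 genes there.

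To ask whether ARID1B changed histone cluster messages, the ARID1B libraries were compared with the vector libraries. No histone gene passed the threshold (limma, adjusted p under 0.05 over 10416 genes), in either direction, and over all genes 3 passed as higher (0.0288%) and 0 as lower (0%). ARID1B, the introduced cDNA, was 1 of these 3 (limma adjusted p = 0.0255). Voom on the recovered reads also called 0 histone genes. At an unadjusted p under 0.05, 6 of the 16 tested histone genes were on the higher side (HIST1H1C, HIST1H2AC, HIST1H2BC, HIST1H2BG, HIST1H4H and HIST2H2BE), against 4.64% of all genes tested. HIST3H2A was on the lower side, where the share over all genes was 5.94%. All 7 are on the polyadenylated list, which was chosen with earlier results of these data known, so this is a description only. The median log2 change (of FPKM + 1, which understates the change of low genes) was 0.55 over the 10 listed genes, 0.02 over the 6 others and 0.20 over all 16, beside −0.02 over all genes tested. Without the second vector library the medians were 0.63, 0.03 and 0.32, beside −0.01 over all genes.

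The largest level of a single gene was that of HIST1H2BK, an H2B gene with a known polyadenylated message. It was at 64.6, 47.9 and 59.5 FPKM in the ARID1B libraries and at 34.5, 63.9 and 39.6 FPKM in the vector libraries. The groups overlapped through the second vector library, and the log2 change was 0.35 ± 0.25 (SE, n = 3 each; limma adjusted p = 0.662). Without that library it was 0.61 (limma adjusted p = 0.0934), and with a correction for GC content and length 0.63. Without the first vector library it was 0.17 (limma adjusted p = 0.714).

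HIST1H1C encodes the linker histone H1.2, which binds the DNA between nucleosomes. It was at 40.8, 25.8 and 36.3 FPKM in the ARID1B libraries and at 15.4, 28.9 and 17.4 FPKM in the vector libraries. Here too only the second vector library lay within the range of the ARID1B group. The log2 change was 0.74 ± 0.28 (SE, n = 3 each; limma adjusted p = 0.431), and 0.996 without that library (limma adjusted p = 0.0656). Without the first vector library it was 0.56 (limma adjusted p = 0.439). The other 5 H1 genes were all below the filter.

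HIST2H2BE, the gene whose promoter is shown above, encodes H2B type 2-E. It was at 16.1, 14.2 and 15.3 FPKM in the ARID1B libraries and at 8.01, 10.7 and 8.52 FPKM in the vector libraries. The groups did not overlap, and the means were 15.2 ± 0.933 FPKM in ARID1B and 9.07 ± 1.41 FPKM in vector (SD, n = 3 each). Its log2 change of 0.69 ± 0.13 (SE) had the smallest unadjusted p of the histone genes, 0.00178, and a limma adjusted p of 0.285. Without the second vector library the log2 change was 0.80 and the limma adjusted p was 0.0285. It was then the 1 histone gene that passed, among 1.2% of all genes that passed as higher. Without both libraries numbered 3 the log2 change was 0.65 and the limma adjusted p 0.999. No gene at all passed in that setting, where even ARID1B had a limma adjusted p of 0.838, so this p cannot tell the genes apart. The value rests on 1201 to 3122 reads per library.

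HIST1H2BC and HIST1H2AC share the promoter printed above. HIST1H2BC, an H2B gene, was at 7.36, 3.78 and 6.44 FPKM in the ARID1B libraries and at 1.73, 2.70 and 2.50 FPKM in the vector libraries. HIST1H2AC, an H2A gene, was at 15.9, 13.6 and 17.9 FPKM in the ARID1B libraries and at 10.6, 10.2 and 10.3 FPKM in the vector libraries. Neither gene's groups overlapped. The log2 change was 1.02 ± 0.24 for HIST1H2BC, the largest of the 16, and 0.56 ± 0.13 for HIST1H2AC (SE, n = 3 each; limma adjusted p = 0.301 for both). The vector libraries of HIST1H2AC lay close together, the second one included.

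HIST1H4H, which encodes histone H4, was at 5.02, 3.50 and 4.91 FPKM in the ARID1B libraries and at 2.31, 3.29 and 2.59 FPKM in the vector libraries. Its groups did not overlap (log2 change 0.55 ± 0.16, SE; limma adjusted p = 0.350). HIST1H2BG, an H2B gene, was at 5.78, 2.70 and 4.67 FPKM in the ARID1B libraries and at 1.73, 2.80 and 2.06 FPKM in the vector libraries. The second ARID1B library lay just below the second vector library, and the log2 change was 0.72 ± 0.25 (SE; limma adjusted p = 0.406).

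The values of HIST3H2A, an H2A gene of the small HIST3 cluster, ran the other way. It was at 4.69, 4.46 and 4.78 FPKM in the ARID1B libraries and at 6.06, 6.43 and 6.55 FPKM in the vector libraries. The groups did not overlap, with means of 4.65 ± 0.166 FPKM in ARID1B and 6.35 ± 0.258 FPKM in vector (SD, n = 3 each). The log2 change was −0.38 ± 0.09 (SE; limma adjusted p = 0.306), and −0.37 without the second vector library (limma adjusted p = 0.0639). With a correction for GC content and length it was −0.13. Across all genes the log2 change went with GC content (Spearman rho = −0.55 across genes, which are not independent replicates), and the part of GC content in this result was not tested further.

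The groups thus did not overlap in 4 of the 16 genes with ARID1B higher (HIST1H2AC, HIST1H2BC, HIST1H4H and HIST2H2BE), where the share over all genes tested was 9.44%, and in 1 with ARID1B lower, where it was 11.1%.

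**Figure D3:**
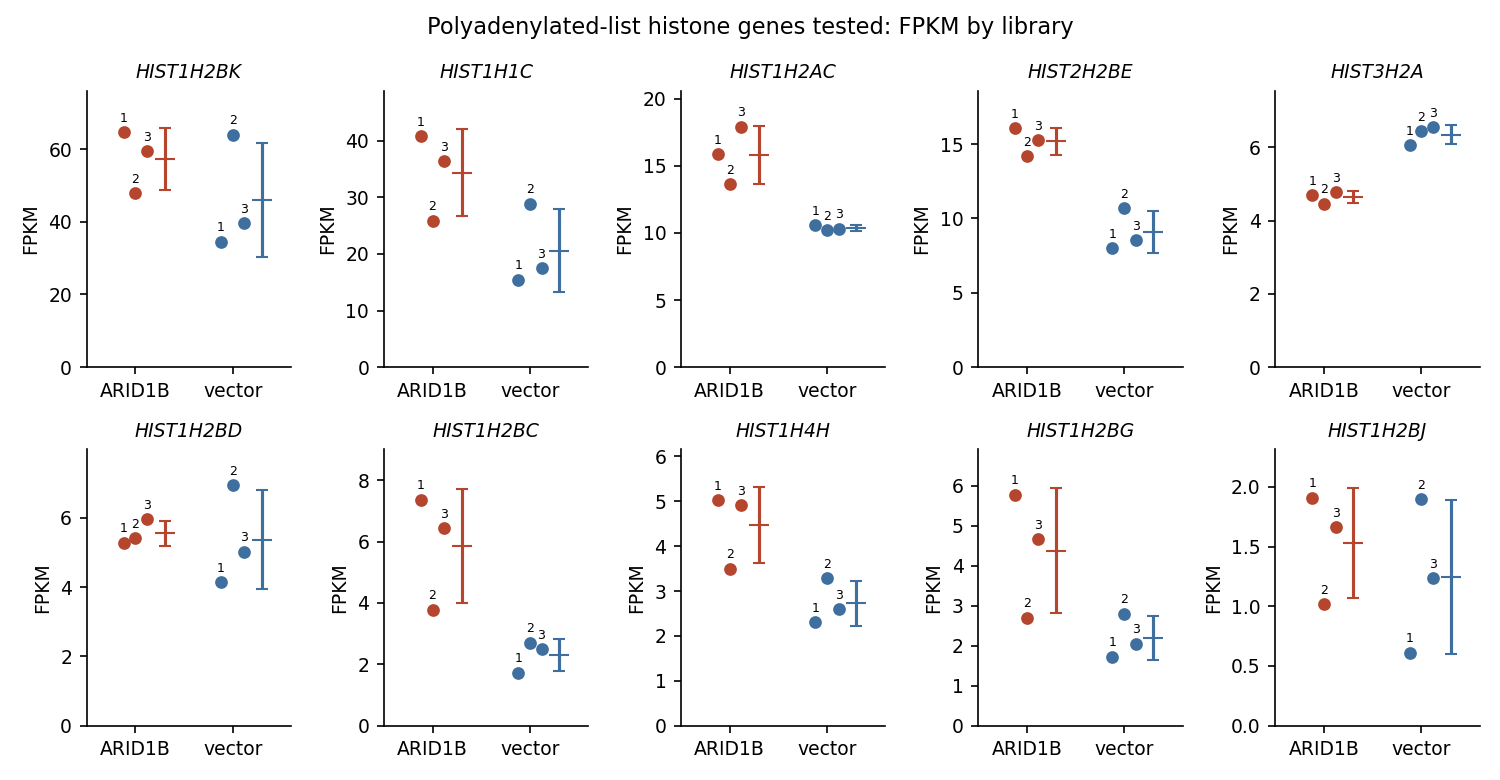
FPKM (y axis, from 0) of the 10 tested genes on the polyadenylated list in each ARID1B library and each vector library, numbered by replicate, with the mean and SD of each group beside the points. The groups do not overlap for HIST1H2AC, HIST2H2BE, HIST1H2BC, HIST1H4H and HIST3H2A, and in HIST1H2BK and HIST1H1C the second vector library is the one within the ARID1B range.

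The other listed genes differed little against their spread. HIST1H2BD was at 5.28, 5.42 and 5.96 FPKM in the ARID1B libraries and at 4.15, 6.95 and 5.03 FPKM in the vector libraries. HIST1H2BJ was at 1.91, 1.02 and 1.66 FPKM in the ARID1B libraries and at 0.610, 1.90 and 1.23 FPKM in the vector libraries. Both H2B genes overlapped between the groups, with log2 changes of 0.06 ± 0.17 for HIST1H2BD (limma adjusted p = 0.903) and 0.19 ± 0.24 for HIST1H2BJ (SE, n = 3 each; limma adjusted p = 0.788). Below the filter, HIST2H2BF was at 0.300, 0.193 and 0.270 FPKM in the ARID1B libraries and at 0.239, 0.148 and 0.267 FPKM in the vector libraries. HIST4H4 was at 0.152, 0.178 and 0.104 FPKM in the ARID1B libraries and at 0.0792, 0.0493 and 0.107 FPKM in the vector libraries, from 21 to 62 reads each. Both overlapped.

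The 6 tested genes outside the list were all at low levels, and no value of theirs was above 2.45 FPKM. Their log2 changes lay between −0.29 and 0.20, with 3 above 0 and 3 below, and the groups overlapped in each of them. HIST1H3H, an H3 gene, was at 2.45, 0.770 and 2.23 FPKM in the ARID1B libraries and at 1.23, 1.31 and 1.50 FPKM in the vector libraries, where the ARID1B libraries lay on both sides of the vector group. HIST1H3E was at 1.61, 1.75 and 1.29 FPKM in the ARID1B libraries and at 0.941, 1.55 and 1.54 FPKM in the vector libraries. HIST1H4J was at 1.26, 1.05 and 0.611 FPKM in the ARID1B libraries and at 1.46, 1.09 and 1.64 FPKM in the vector libraries, with the most negative log2 change of the 6, −0.29 ± 0.16 (SE, n = 3 each; limma adjusted p = 0.576). With the GC and length correction the value of HIST1H4J was −0.00040. HIST1H2AE was at 1.28, 0.641 and 1.07 FPKM in the ARID1B libraries and at 1.07, 1.31 and 1.07 FPKM in the vector libraries. HIST1H2BH was at 1.24, 0.857 and 0.870 FPKM in the ARID1B libraries and at 0.643, 1.48 and 1.11 FPKM in the vector libraries. The groups separated in neither gene. HIST2H2BB, which is annotated as a pseudogene, was at 0.937, 1.63 and 1.37 FPKM in the ARID1B libraries and at 1.34, 0.841 and 1.37 FPKM in the vector libraries.

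The next genes of this class lay below the filter and were not tested. HIST1H2AI was at 1.67, 0.457 and 1.27 FPKM in the ARID1B libraries and at 0.959, 0.458 and 0.713 FPKM in the vector libraries. HIST1H2AG was at 0.753, 0.916 and 0.894 FPKM in the ARID1B libraries and at 1.14, 0.779 and 0.860 FPKM in the vector libraries. HIST2H2AC was at 1.08, 0.432 and 0.697 FPKM in the ARID1B libraries and at 0.483, 1.52 and 0.794 FPKM in the vector libraries. All 3 are H2A genes whose groups overlapped. HIST2H2AA3 was at 0.792, 0.720 and 0.570 FPKM in the ARID1B libraries and at 0.268, 0.873 and 0.308 FPKM in the vector libraries, again with overlap, and it shares its sequence with HIST2H2AA4. Over the 52 genes above 0 and below the filter, the median of the mean FPKM was 0.107, and the ARID1B mean was the higher one in 30 and the lower one in 22. A median of 29 reads in the 6 libraries together stood behind each of the 64 genes outside the list, so that differences in single genes of this class were not detectable at this depth unless large.

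**Figure D4:**
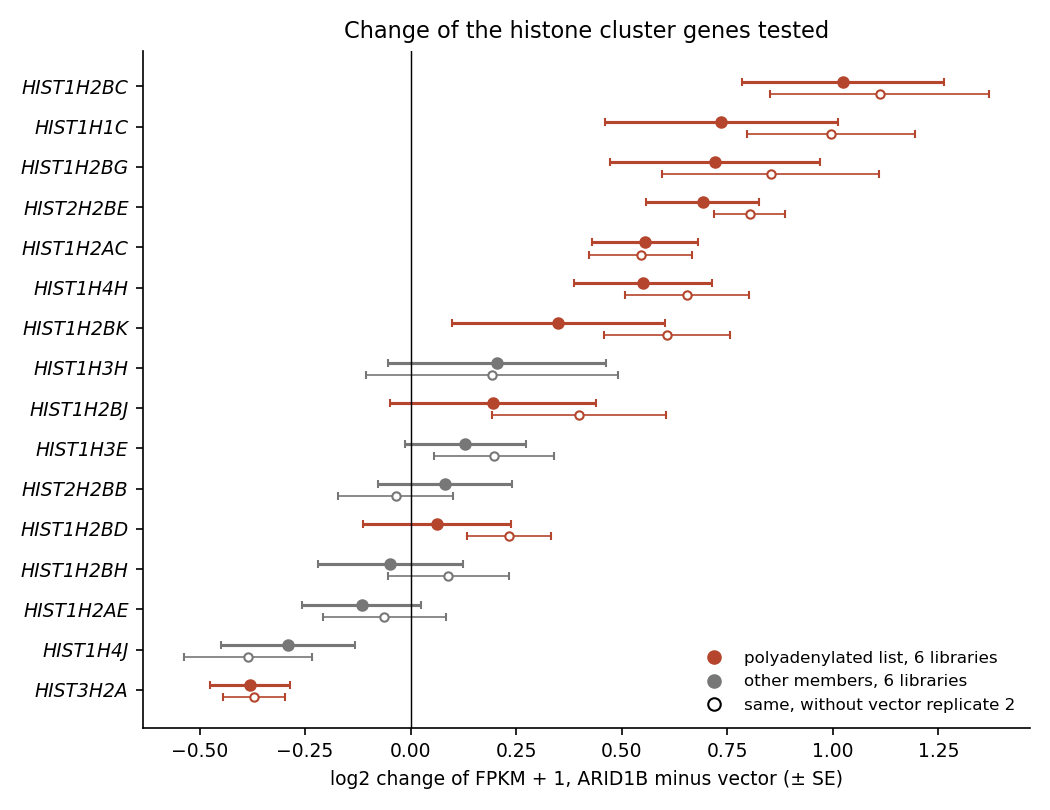
Log2 change of FPKM + 1, ARID1B minus vector (x axis, points with SE), for the 16 tested histone cluster genes, with filled points for all 6 libraries and open points without the second vector library, and with listed and other genes in different colours. HIST1H2BC is at the top with 1.02 and HIST3H2A at the bottom with −0.38, and the 6 other genes lie between −0.29 and 0.20.

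Summed over the class, the 12 listed genes were at 168, 123 and 158 FPKM in the ARID1B libraries and at 85.4, 138 and 96.2 FPKM in the vector libraries. The 64 others were at 19.9, 14.9 and 18.1 FPKM in the ARID1B libraries and at 13.7, 18.7 and 16.4 FPKM in the vector libraries. The groups overlapped in both sums, and the means were 149 ± 23.6 FPKM in ARID1B and 107 ± 27.7 FPKM in vector for the listed genes, and 17.7 ± 2.54 FPKM in ARID1B and 16.2 ± 2.51 FPKM in vector for the others (SD, n = 3 each). By family the H1 sum was 34.6 ± 7.71 FPKM in ARID1B and 20.8 ± 7.31 FPKM in vector. The H2B sum was 94.3 ± 13.3 FPKM in ARID1B and 70.3 ± 20.2 FPKM in vector. The H2A sum was 26.3 ± 2.87 FPKM in ARID1B and 21.9 ± 0.796 FPKM in vector. The H3 and H4 sums were at most 7.84 FPKM in any library. By cluster, the HIST2 sum was 19.9 ± 1.12 FPKM in ARID1B and 13.1 ± 1.81 FPKM in vector, and the HIST3 sum was 4.67 ± 0.163 FPKM in ARID1B and 6.44 ± 0.261 FPKM in vector, each set mainly by 1 gene (HIST2H2BE and HIST3H2A).

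Histone supply is tied to DNA replication, so 25 S phase genes were read beside these sums. Their summed level was 223, 138 and 203 FPKM in the ARID1B libraries and 121, 290 and 144 FPKM in the vector libraries, with the second vector library the highest of all 6. No S phase gene passed the threshold in limma, and the median log2 change of the 24 tested was 0.08, or 0.37 without the second vector library. POLA1, a subunit of DNA polymerase alpha, was at 2.63, 1.76 and 2.18 FPKM in the ARID1B libraries and at 1.57, 1.55 and 1.56 FPKM in the vector libraries (log2 change 0.31, limma adjusted p = 0.451). It was the 1 of 24 tested at an unadjusted limma p under 0.05, on the higher side, where the share over all genes was 4.64%. MKI67, a marker of cycling cells, was at 9.73, 3.52 and 8.14 FPKM in the ARID1B libraries and at 2.83, 6.49 and 3.38 FPKM in the vector libraries. The tested histone genes often ranked the libraries as these genes did. Within the vector group replicate 2 was highest and replicate 1 lowest in 11 of the 16 histone genes, in 23 of the 24 S phase genes and in 42.4% of all genes tested. Within the ARID1B group replicate 1 was highest and replicate 2 lowest in 10 of the 16, in 22 of the 24 and in 44.2% of all genes tested. HIST1H2AC and HIST3H2A were among the 5 histone genes outside the vector ranking. The part of cycling cells in the histone values was not tested, and in bulk samples fewer cells that express a gene and less RNA per cell cannot be told apart.

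**Figure D5:**
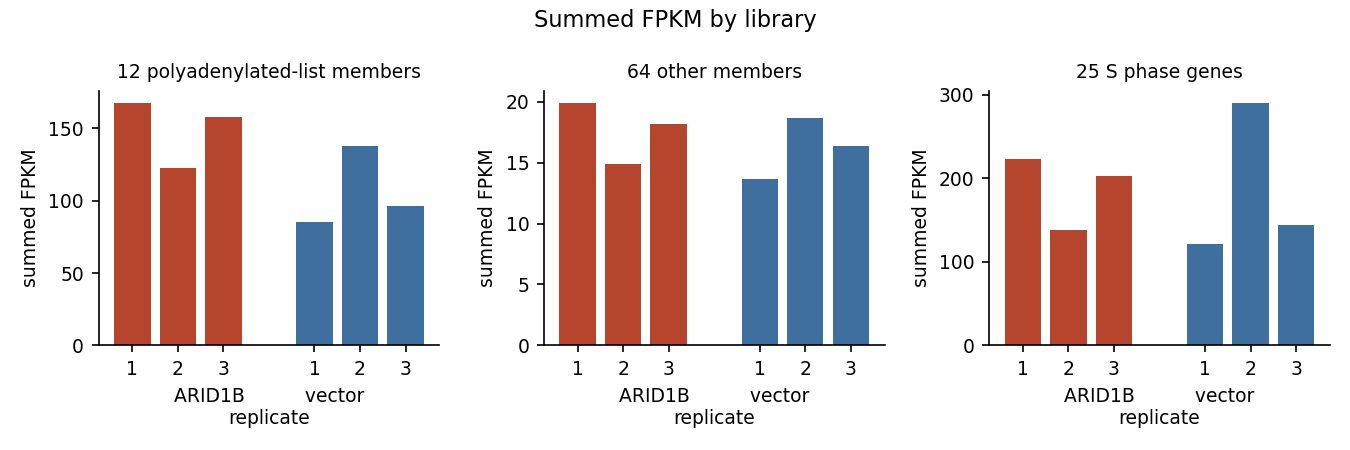
Summed FPKM (y axis, from 0) in each ARID1B library and each vector library for the 12 histone genes on the polyadenylated list, the 64 other histone genes and 25 S phase genes. The second vector library has the highest S phase sum, 290 FPKM, and the highest histone sums of the vector group, 138 and 18.7 FPKM.

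Divergent partners did not have equal levels. HIST2H2BE had a mean of 12.1 FPKM and its partner HIST2H2AC, 236 bases away, 0.834 FPKM. HIST3H2A had 5.50 FPKM and HIST3H2BB, 230 bases away, 0.0600 FPKM. HIST1H2BG had 3.29 FPKM and HIST1H2AE, 233 bases away, 1.07 FPKM, with log2 changes of 0.72 and −0.12. Both partners were tested only for HIST1H2BC with HIST1H2AC and for HIST1H2BG with HIST1H2AE. In the first of these pairs neither partner's groups overlapped, and in the second both did. In HIST3H2A and HIST3H2BB the groups also did not overlap, with ARID1B lower, but HIST3H2BB had 1 to 5 reads per library and was not tested. The 8 tested genes with the octamer had a median log2 change of 0.45 (from −0.12 to 1.02), and the 7 without it one of 0.13 (from −0.38 to 0.74). These ranges overlapped, and the match is a description only. HIST1H2BC and HIST1H2AC share the same octamer, as do HIST1H2BG and HIST1H2AE, so these genes do not each add a separate site.

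Histones made outside S phase and the factors that make histone messages were read from lists. Of 12 replication-independent histone genes, 11 were tested and none passed in limma. At an unadjusted limma p under 0.05, 0 were higher and 3 lower, against 4.64% and 5.94% of all genes tested. The median log2 change was −0.11, with 2 of the 11 above 0. Without the second vector library the median was 0.06, with 7 of the 11 above 0. H3F3A, which encodes the replacement histone H3.3, was at 18.2, 18.1 and 17.9 FPKM in the ARID1B libraries and at 24.4, 21.8 and 24.7 FPKM in the vector libraries, without overlap (log2 change −0.37, limma adjusted p = 0.340). Without the second vector library it was −0.42 and passed (limma adjusted p = 0.0452), as did 1.91% of all genes on the lower side. H1F0, the linker histone H1.0 of differentiated and resting cells, was at 21.8, 22.1 and 21.5 FPKM in the ARID1B libraries and at 26.2, 26.3 and 25.9 FPKM in the vector libraries (log2 change −0.25, limma adjusted p = 0.435). H1FX, the linker histone H1X, was at 22.4, 20.3 and 20.6 FPKM in the ARID1B libraries and at 25.7, 34.3 and 29.1 FPKM in the vector libraries (log2 change −0.47, limma adjusted p = 0.350). In each of these 3 genes all vector libraries were higher, as in 11.1% of all genes tested. With the GC and length correction the log2 change was −0.40 for H3F3A, −0.15 for H1F0 and −0.11 for H1FX. Another H3.3 gene, H3F3B, overlapped, with a log2 change of −0.11 ± 0.16 (SE).

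Of 19 genes for the transcription and 3′ processing of histone messages, 14 were tested and none passed in limma. At an unadjusted limma p under 0.05, 0 were higher and 1 lower, against 4.64% and 5.94% of all genes tested. Groups without overlap were found in 1 gene with ARID1B higher and in 1 with ARID1B lower, against 9.44% and 11.1%. The median log2 change was 0.03, or −0.00096 without the second vector library. SLBP, which binds the stem-loop, was at 13.6, 12.9 and 13.8 FPKM in the ARID1B libraries and at 10.7, 16.2 and 11.3 FPKM in the vector libraries. NPAT, the coactivator of histone genes at the start of S phase, was at 1.89, 2.80 and 2.44 FPKM in the ARID1B libraries and at 2.96, 1.09 and 2.41 FPKM in the vector libraries. Both overlapped between the groups. SYMPK, the scaffold of the cleavage complex, was at 3.44, 3.20 and 3.22 FPKM in the ARID1B libraries and at 4.03, 5.22 and 4.34 FPKM in the vector libraries, without overlap (log2 change −0.36, limma adjusted p = 0.381). With the GC and length correction its log2 change was −0.33.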

How the data were processed

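The authors deposited a table of FPKM values (fragments per kilobase of gene and sequencing depth) for 57232 genes and 6 libraries, 3 with ARID1B cDNA and 3 with empty vector. TopHat2 2.0.11 and HTSeq 0.5.3p9 stand in the submitters' processing notes, as do DESeq2 and the build hg19, without their roles. The 10416 genes that averaged 1 FPKM or more were tested on log2(FPKM + 1) in limma 3.58.1 under R 4.3.3 (eBayes with trend, two-sided), with Benjamini-Hochberg adjustment over these genes and a threshold of 0.05. An exact permutation test of 3 against 3 cannot go below p = 0.1 and was not used. The p-values measure the spread between these libraries.

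FPKM steps gave library totals and whole reads within 0.002 reads for all 10416 genes tested. Where a gene's reads share a divisor, its reads and implied length are too small by that factor. Intervals were not computed, and depth is given as reads. GENCODE v29 (GRCh38) gave transcripts, GC content and length. RefSeq (GRCh38.p14) gave promoters, matched by symbol. Coordinates are on GRCh38, and none comes from the table. The steps were tested on simulated data.

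The genes and lists were chosen with earlier results of these data known. Every listed polyadenylated gene and the 10 other genes with the highest mean FPKM were named with all values, and from other lists up to 4 genes by the smallest p, with genes named for their role. HIST2H2BF and HIST4H4 could not be tested. The alternatives were another pseudocount (0.1), no filter, a filter at 5 FPKM, median-ratio and quantile normalization, no variance trend, a replicate block, a GC and length correction, voom on recovered reads and leaving out libraries. The alternative with the GC and length correction and without the second vector library was chosen after seeing the data.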

Additional observations from a re-analysis of the deposited data

How the results depend on the processing

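The log2 changes of HIST1H1C, HIST1H2AC, HIST1H2BC, HIST1H2BG, HIST1H2BK, HIST1H3H, HIST1H4H, HIST1H4J, HIST2H2BE and HIST3H2A kept their direction in every alternative run. For HIST1H4J the value with the GC and length correction was −0.00040 ± 0.26 (SE), too small against its error to give a direction. Of 278 values of named genes under alternatives, 261 kept direction and side of the threshold. Leaving out 1 library at a time, the count of genes called went from 0 to 324 and that of histone genes from 0 to 1, the highest of both without the second vector library (main: 3 and 0). HIST2H2BE then had a log2 change of 0.80. The median log2 change of the histone genes went from 0.15 to 0.41 (without the second ARID1B library; main: 0.20) and was 0.45 with a mean of at least 5 FPKM, where no gene outside the list was left. The median of the listed genes lay between 0.45 and 0.67, and that of the others, between −0.07 and 0.09, kept its sign in 13 of the 16 alternatives that left such genes. The count of genes called was 0 without a filter, 5 with the GC and length correction, 1 with voom and 0 without both libraries numbered 3. With the GC and length correction and without the second vector library it was 390, with 3 histone genes, HIST1H2BK (0.70), HIST1H1C (1.07) and HIST2H2BE (0.76). 

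The replicate numbers were not used as pairs in the main test, and whether the cultures were paired is not given in the sources used here. Same-numbered libraries deviated from their group means in opposite directions (correlations of −0.46, −0.43 and −0.17 across genes), which cannot settle it. With the replicate block 0 genes were called, alone and with the GC and length correction. 

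Directions turned only in genes with small changes. Leaving out 1 library at a time, the log2 change of HIST1H2BD went from −0.081 to 0.23, of HIST1H2BJ from −0.025 to 0.40, of HIST1H3E from −0.00055 to 0.20, of HIST2H2BB from −0.036 to 0.20, of HIST1H2AE from −0.22 to 0.019 and of HIST1H2BH from −0.21 to 0.089. With the GC and length correction HIST1H2AE was at 0.097, with and without the block. Without both libraries numbered 3, HIST1H2BD was at −0.011 and HIST1H2BH at 0.016. With the GC and length correction and without the second vector library, HIST2H2BB was at −0.0030 and HIST1H2BH at 0.022. The cause was not tested.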

Other observations

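The general machinery for cleavage and polyadenylation, which makes the ends of the listed histone messages, was not part of the comparisons above. Of its 15 listed genes 14 were tested and none passed in limma. At an unadjusted limma p under 0.05, 0 were higher and 2 lower, against 4.64% and 5.94% of all genes tested. Groups without overlap were found in 0 genes with ARID1B higher and in 4 with ARID1B lower, against 9.44% and 11.1%. The median log2 change was −0.11, or −0.09 without the second vector library. CPSF1, which belongs to the complex that binds the polyadenylation signal, was at 7.81, 7.12 and 7.19 FPKM in the ARID1B libraries and at 9.32, 9.58 and 9.54 FPKM in the vector libraries, without overlap (log2 change −0.32, limma adjusted p = 0.350). PABPN1, the nuclear poly(A) binding protein, was at 5.52, 5.61 and 5.28 FPKM in the ARID1B libraries and at 6.39, 9.17 and 6.96 FPKM in the vector libraries, also without overlap (log2 change −0.38, limma adjusted p = 0.430). With the GC and length correction the log2 change was −0.16 for CPSF1 and −0.31 for PABPN1.

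Of 24 histone chaperones 22 were tested and none passed in limma. At an unadjusted limma p under 0.05, 0 were higher and 1 lower, against 4.64% and 5.94% of all genes tested. Groups without overlap were found in 0 genes with ARID1B higher and in 2 with ARID1B lower, against 9.44% and 11.1%. The median log2 change was −0.03, or 0.06 without the second vector library. DAXX, a chaperone of H3.3, was at 12.1, 11.5 and 11.5 FPKM in the ARID1B libraries and at 13.5, 17.4 and 14.4 FPKM in the vector libraries, without overlap (log2 change −0.33, limma adjusted p = 0.431). HIRA, which also deposits H3.3, was at 1.45, 1.36 and 1.43 FPKM in the ARID1B libraries and at 1.71, 2.60 and 1.77 FPKM in the vector libraries, without overlap (log2 change −0.32, limma adjusted p = 0.475). With the GC and length correction the log2 change was −0.22 for DAXX and −0.24 for HIRA.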
